A study of Mus musculus with 12 samples.

Results

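miR-15a, miR-15b, miR-16 and miR-195 are mature microRNAs (miRNAs) that carry the same seed, the bases 2 to 8 from the 5′ end with which a miRNA pairs to its target mRNAs. They were picked by name, for this seed, and make up 4 of the 593 assays in the deposited table and 4 of the 270 assays that could be given a name. Each was read by TaqMan low density array RT-qPCR in 12 samples of C57BL/6 mouse bone marrow cells: 4 stages of granulocyte development in 3 RNA fractions. The stages were LSK cells (Lin- Sca1+ cKit+, a mixture of stem and early progenitor cells), promyelocytes, myelocytes and granulocytes, all sorted by flow cytometry, and the fractions were whole cell, cytoplasmic and nuclear RNA. Each sample is labelled as reverse transcribed from 100 ng of RNA, no treatment or genetic change was applied, and the age and number of the mice are not given in the sources used here. There was 1 sample per stage and fraction and 1 well per assay, so the values below have no error, no difference has a replicate check and no test was made between stages. With the fixed mass of RNA that the labels give, a change in copies per cell cannot be told apart from a change in total RNA per cell or in the mixture of cells. For the fractions the study describes cell equivalent volumes, so whether their values are per mass of RNA or per cell is not known here.

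The miR-15/16 family is known for repressing Bcl2, which blocks cell death, and D- and E-type cyclins, which drive entry into the cell cycle, and the miR-15a/16-1 locus is deleted in many chronic lymphocytic leukemias. Because the seed is shared, the members are predicted to bind largely overlapping sets of targets. They come from separate transcripts: miR-15a and one copy of miR-16 lie in the noncoding gene Dleu2, miR-15b and the other copy of miR-16 lie within Smc4, which encodes a condensin subunit, and miR-195 is paired with miR-497. The mature miR-16 of both copies is identical, so its assay reads their sum.

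The mature sequences show what the assays had to tell apart, and are given from RefSeq in the 5′ to 3′ direction with the seed in capitals.
miR-15a: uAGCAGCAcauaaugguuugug
miR-15b: uAGCAGCAcaucaugguuuaca
miR-16: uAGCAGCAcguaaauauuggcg
miR-195: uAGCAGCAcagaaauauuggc
miR-322: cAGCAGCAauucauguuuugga
miR-497: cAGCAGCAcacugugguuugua
miR-322 and miR-497 have the same seed and were also named on the array. In RefSeq, 10 of 1679 mature mouse miRNA names carry this seed, and 6 of the 10 were named here. miR-16 and miR-195 differed at 2 of 21 aligned bases, the closest of the member pairs, miR-15a and miR-15b at 4 of 22, and miR-15b and miR-16 at 8 of 22. Whether an assay also read another member was not tested.

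On the GRCm38.p6 assembly, mature miR-15a lies at chr14:61632075-61632096 and the miR-16-1 copy at chr14:61631936-61631957, both on the minus strand within Dleu2. miR-15b lies at chr3:69009775-69009796 and the miR-16-2 copy at chr3:69009918-69009939, both on the plus strand within Smc4. miR-195 lies at chr11:70235062-70235082 and miR-497 at chr11:70234730-70234751 on the plus strand, with no annotated gene over either apart from the miRNA genes themselves, and no other gene starts between the miRNA genes of any of these 3 pairs. miR-322 lies at chrX:53054306-53054327 on the minus strand, within the noncoding gene C430049B03Rik.

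The CT is the PCR cycle at which a product crosses a fixed threshold, so a lower CT means more template, 1 cycle stands for 2-fold at full efficiency, and an undetermined well is listed at 40. Between LSK and granulocytes, whole cell values went with the labels. Both granulocytic miRNAs listed, miR-223 and miR-142-3p, were higher in granulocytes than in LSK by 3.98 to 6.87 on the log2 scale. Of the named stem and progenitor miRNAs, 7 of 7 were lower, with log2 changes of -8.06 to -3.36. From promyelocytes to granulocytes not all of them fell: miR-125a-5p changed by 0.24 and miR-126-3p by -0.32, the others by -4.33 to -1.36. Of 2 lymphoid miRNAs, miR-150 and miR-181a, 1 was lower in granulocytes than in LSK by 2-fold or more. miR-150 did not fall steadily, with whole cell CTs of 25.1, 28.8, 25.6 and 25.8 from LSK to granulocytes, and between promyelocytes and myelocytes it rose by 3.19 on the log2 scale, while miR-181a changed by -0.24. The erythroid list had 1 named assay of 3, miR-486, which was undetermined in LSK and promyelocytes and had a CT of 31.5 in myelocytes and 31.7 in granulocytes. Ter119, an erythroid surface marker, is listed among the antibodies of the LSK sort and not among those of the other 3 stages, and the part of erythroid or lymphoid cells in the changes below was not tested.

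miR-16 gave the lowest CT of the 4 members in each of the 12 samples, followed by miR-15b, miR-195 and miR-15a in that order. Its whole cell CTs, from LSK through promyelocytes and myelocytes to granulocytes, were 23.1, 22.4, 20.4 and 19.6. It was among the earliest signals of the card set, with 6 of the 270 named assays at a lower CT in LSK, 8 in promyelocytes, and in myelocytes and granulocytes 1, the granulocytic miR-223. The position of an assay by CT also reflects its own efficiency, so these orders are not copy numbers. miR-15b had CTs of 27.0, 26.3, 24.1 and 23.5 in the same order of stages. miR-195 had CTs of 28.8, 27.2, 25.9 and 24.6. miR-15a was the latest, at 31.5, 31.2, 28.6 and 28.04, and was under a CT of 30, the limit set for counting an assay, only in myelocytes and granulocytes. Thus miR-15a entered the counts below through the stages in which it was high. For each of the 4 members the whole cell CT fell at every stage from LSK to granulocytes.

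**Figure D1:**
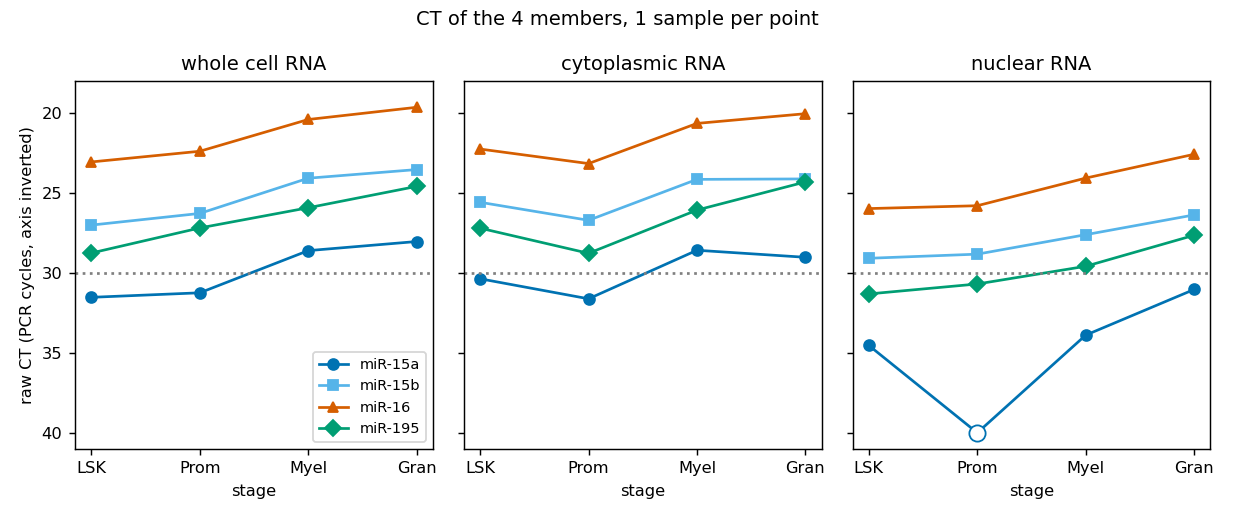
Raw CT (cycles, inverted axis, so that more template is higher) of the 4 members by stage in whole cell, cytoplasmic and nuclear RNA, with 1 sample per point and no error; Prom, Myel and Gran are promyelocytes, myelocytes and granulocytes, the dotted line is a CT of 30 and the open symbol is an undetermined well. In each fraction miR-16 is uppermost and miR-15a lowest, and from promyelocytes to myelocytes each member moves upward.

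Between promyelocytes and myelocytes, the last dividing precursors of granulocytes, all 4 members rose in whole cell RNA. After scaling by the 3 control assays at the end of card B, the log2 change was 2.65 for miR-15a, 2.21 for miR-15b, 1.998 for miR-16 and 1.27 for miR-195, or 6.27-, 4.64-, 3.99- and 2.42-fold. An increase of 2-fold or more was shared by 42.6% of the 129 named assays that fell under a CT of 30 in 1 or more of the whole cell samples. The median of the members was 2.11 against 0.75 for the 129 assays, and 14 of them rose more than miR-15a and 48 more than miR-195. Those assays come from both cards, which differed at this step. Among assays under a CT of 30 at both stages the unscaled median was 0.82 on card A, which holds the members, and 0.002 on card B. Each member increased at this step under each scaling used. The median of the members was 2.09 without scaling, against 0.74 for the 129 assays. Relative to the mean CT of 73 named assays it was 1.59, against 0.24. With the mean CT miR-195 came to 0.76, under 2-fold, so that 3 of the 4 members passed. The share of all assays that passed with that scaling was not counted.

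The steps on either side were smaller for miR-15a, miR-15b and miR-16, while the first step of miR-195 was slightly larger than its second. From LSK to promyelocytes the change was 0.04 for miR-15a, 0.48 for miR-15b, 0.42 for miR-16 and 1.32 for miR-195. miR-195 was thus the only member to pass 2-fold there, as did 34.9% of the 129 assays, and the median of the members, 0.45, lay near that of all assays, 0.42. Relative to the mean CT, miR-195 came to 0.99, just under 2-fold, and miR-15a to -0.30, so its sign depended on the scaling. From myelocytes to granulocytes the 4 changes were 0.13, 0.10, 0.32 and 0.90 for miR-15a, miR-15b, miR-16 and miR-195, with no member past 2-fold, against 10.1% of all assays; without scaling miR-195 came to 1.34 and passed.

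Over the whole course from LSK to granulocytes each member rose 6.69- to 11.2-fold, with a median log2 change of 2.81 (1.30 for the 129 assays) and the largest value, 3.49, for miR-195. Of the 129 assays, 54.3% rose by 2-fold or more over this interval. The size depended on the scaling: the 4 folds were 3.75 to 6.30 relative to the mean CT and 10.7 to 17.97 without scaling. The course differed among the members. For miR-15a, 94.1% of its log2 rise fell between promyelocytes and myelocytes, for miR-15b 79.2% and for miR-16 72.9%, while miR-195 gained 37.8%, 36.5% and 25.7% in the 3 successive steps. Without scaling the shares of the middle step were 75.6%, 63.4%, 58.1% and 30.3% for miR-15a, miR-15b, miR-16 and miR-195, in the same order.

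**Figure D2:**
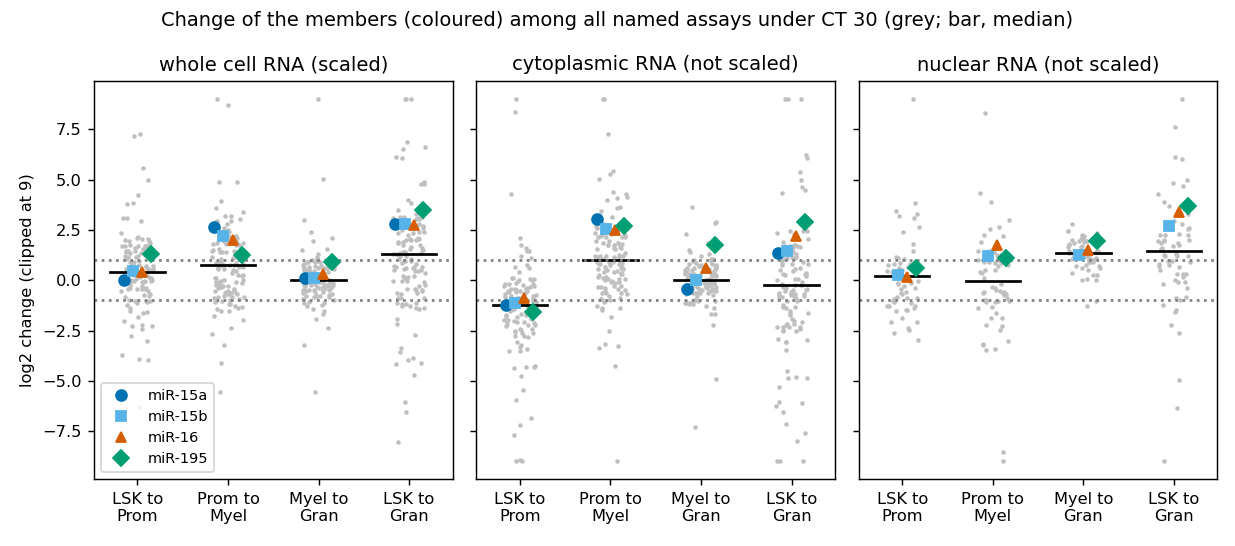
Log2 change between stages (vertical axis, clipped at 9) of the members (coloured symbols) among all named assays with a CT under 30 in at least 1 stage of the fraction (grey points; bar, median), with dotted lines at 2-fold and 1 sample per stage; miR-15a did not pass the CT limit in nuclear RNA and is not drawn there. All members shown lie above the upper dotted line from promyelocytes to myelocytes, and the whole cell values of that step run from 1.27 to 2.65.

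Cytoplasmic CTs gave the same order of the members. miR-16 was at 22.3, 23.2, 20.7 and 20.04 from LSK to granulocytes, and miR-15b at 25.6, 26.7, 24.2 and 24.1. miR-195 was at 27.2, 28.8, 26.1 and 24.3, and miR-15a at 30.4, 31.6, 28.6 and 29.0. Promyelocytes thus had the highest cytoplasmic CT for each member, whereas in whole cell RNA LSK did.

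From promyelocytes to myelocytes the unscaled cytoplasmic log2 change was 3.04 for miR-15a, 2.56 for miR-15b, 2.51 for miR-16 and 2.70 for miR-195, all past 2-fold as were 50% of the 128 cytoplasmic assays, whose median was 0.99. Relative to the mean CT of 76 named assays the median of the members was 1.58. With the 3 control assays it was 0.96, against -0.69 for all assays, and miR-15b (0.88) and miR-16 (0.84) no longer passed 2-fold. From myelocytes to granulocytes the members parted. miR-195 rose by a further 1.76 (3.39-fold), with 5 of the 128 assays rising more and 10.9% past 2-fold, while miR-16 changed by 0.61, miR-15b by 0.03 and miR-15a by -0.44. With the 3 control assays these last values were 0.17, -0.98, -1.56 and -2.03, so miR-16 and miR-15b turned sign and miR-195 and miR-15a did not, and the order of the 4 members, which share 1 constant, stayed.

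The step from LSK to promyelocytes was lower in unscaled cytoplasmic RNA by -1.25 for miR-15a, -1.13 for miR-15b, -0.91 for miR-16 and -1.57 for miR-195. The fraction at large moved as far: its median was -1.25 and 60.9% of assays fell by 2-fold or more, as did 3 of the 4 members. The median of the members was -0.02 relative to the mean CT and 0.66 with the control assays, so no direction can be given for this step. From LSK to granulocytes the cytoplasmic change was 1.34 for miR-15a, 1.46 for miR-15b, 2.21 for miR-16 and 2.89 for miR-195, while 33.6% of assays rose by 2-fold or more and the median was -0.23; with the control assays the 4 values were -0.07, 0.05, 0.80 and 1.48.

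Nuclear RNA held less of each member. miR-16 had nuclear CTs of 26.0, 25.8, 24.1 and 22.6 from LSK to granulocytes, miR-15b 29.1, 28.8, 27.6 and 26.4, and miR-195 31.3, 30.7, 29.6 and 27.6. miR-15a had CTs of 34.5 in LSK, 33.9 in myelocytes and 31.0 in granulocytes and was undetermined in promyelocytes, so it never passed the limit of 30. miR-195 was under 30 only in myelocytes and granulocytes, and so entered the nuclear counts through the stages in which it was high. All 4 members had their lowest nuclear CT in granulocytes.

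The nuclear values of these 3 members rose by 1.22 (miR-15b), 1.73 (miR-16) and 1.11 (miR-195) between promyelocytes and myelocytes, while the median of the 66 nuclear assays was -0.04 and 33.3% of them rose by 2-fold or more. Only 9 of the 66 rose more than miR-16. With the control assays the 3 values came to 2.63, 3.14 and 2.52 and the median of the 66 to 1.37. The cards differed at this step: among assays under a CT of 30 at both stages the unscaled median was 0.51 on card A, which holds the members, and -0.97 on card B. From myelocytes to granulocytes miR-15b rose by 1.24, miR-16 by 1.49 and miR-195 by 1.94, but so did the fraction at large, with a median of 1.34 and 74.2% of assays past 2-fold. Relative to the mean CT of 29 assays this second step came to 0.07, 0.32 and 0.77. From LSK to granulocytes the 3 members rose by 2.71 to 3.67, against a median of 1.44 and 57.6% past 2-fold. These values were 1.45 to 2.41 relative to the mean CT and 3.86 to 4.82 with the control assays.

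Distances between members within a sample need no scaling, because all 4 assays are on the same card. In whole cell RNA miR-15b stayed 3.67 to 3.95 cycles behind miR-16, a range of 0.28 cycles over 4 stages in which miR-16 itself moved by more than 3 cycles. The distance between miR-15a and miR-15b, which come from different chromosomes, was 4.52, 4.96, 4.53 and 4.50 cycles from LSK to granulocytes. This is a range of 0.46 cycles, and the distance between miR-15a and miR-16 had a range of 0.65. In cytoplasmic and nuclear RNA the distance of miR-15b from miR-16 was less steady, with ranges of 0.75 and 0.76 cycles.

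The distance of miR-195 from miR-16 had ranges of 0.90 cycles in whole cell, 1.34 in cytoplasmic and 0.62 in nuclear RNA, wider than those of miR-15b in whole cell and cytoplasmic RNA and narrower in nuclear RNA. Its whole cell distance was 5.70, 4.80, 5.52 and 4.95 cycles over the same stages. In cytoplasmic RNA the distance was 4.95, 5.61, 5.42 and 4.27 cycles, and in nuclear RNA 5.34, 4.89, 5.52 and 5.06. From myelocytes to granulocytes it narrowed in all 3 fractions, changing by -0.57, -1.15 and -0.45 cycles in whole cell, cytoplasmic and nuclear RNA. The promyelocyte values did not agree between fractions, since relative to LSK miR-195 was closer to miR-16 in whole cell and nuclear RNA and farther from it in cytoplasmic RNA. Against miR-15b, cytoplasmic miR-195 went from 1.92 cycles behind in myelocytes to 0.19 behind in granulocytes.

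**Figure D3:**
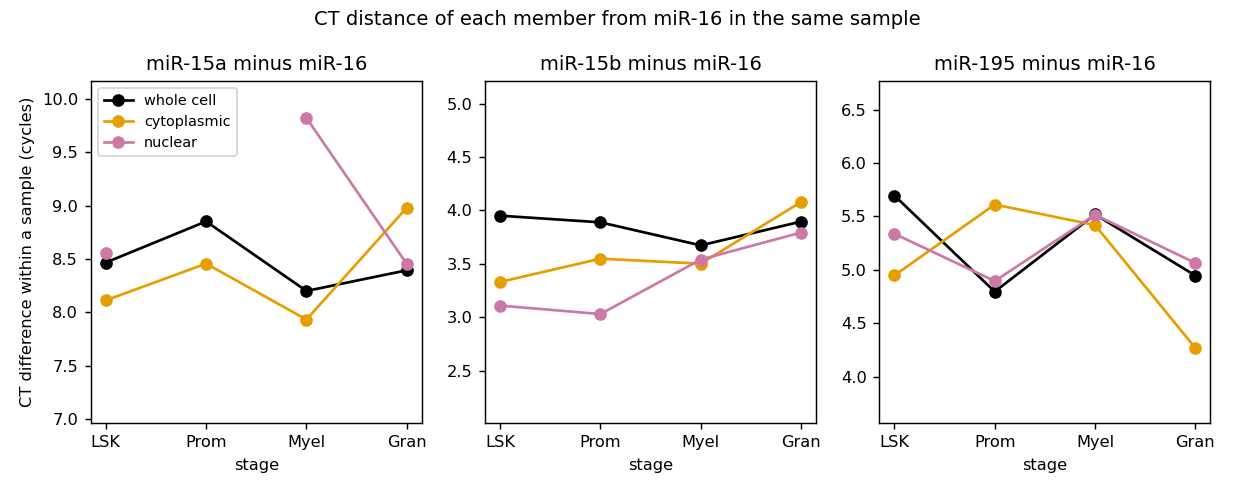
CT of miR-15a, miR-15b and miR-195 minus the CT of miR-16 in the same sample (cycles; all panels span the same number of cycles), by stage and fraction, with 1 sample per point; the undetermined nuclear miR-15a well of promyelocytes is left out. The whole cell distance of miR-15b stays between 3.67 and 3.95 cycles, and that of miR-195 narrows from myelocytes to granulocytes in each fraction.

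The nuclear:cytoplasmic ratio is 2 to the power of the cytoplasmic minus the nuclear CT, divided by 3, a divisor that the printed ratios of the study carry. The study describes its comparison of fractions as one of cell equivalent volumes, while the labels give the same RNA mass for each reaction; how the divisor relates to these is not given in the sources used here, so the ratio cannot be read as copies per nucleus over copies per cytoplasm. From LSK to granulocytes miR-16 had ratios of 0.0252, 0.0536, 0.0312 and 0.0574. The ratios of miR-15b were 0.0294, 0.0768, 0.0303 and 0.0700, and those of miR-195 were 0.0193, 0.0881, 0.0291 and 0.0330. For miR-15a they were 0.0185, 0.00100 with its undetermined nuclear well taken at 40, 0.00842 and 0.0827. With that well taken at 35 the promyelocyte value would be 0.032, so it is not known. None of the 16 values passed 0.1. For miRNAs with a CT under 30 the study took this limit as a trend towards nuclear enrichment, to be followed by individual RT-qPCR assays. Here it was passed by 18.5%, 28.9%, 18.2% and 26.6% of the named assays with a nuclear CT under 35 in the 4 stages in order. These are thus not shares of nuclear-enriched miRNAs. Without the divisor, 6 of the 16 passed 0.1, all in promyelocytes and granulocytes. The median of the named assays then passed it there too, with a nuclear minus cytoplasmic CT of 2.63 and 2.27 cycles. The 6 therefore do not set the members apart, and the share of all assays without the divisor was not counted.

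The medians of all these assays were 0.0210, 0.0540, 0.0268 and 0.0689 in the 4 stages, and miR-16 and miR-15b followed them. miR-16 stayed at 0.833 to 1.20 times the stage median and miR-15b at 1.02 to 1.42 times. miR-195 went from 1.63 times the median in promyelocytes to 0.479 times in granulocytes, where 20 of 154 assays had a lower ratio. miR-15a was at 0.314 times the median in myelocytes, with a nuclear CT of 33.9, and at 1.20 times in granulocytes. The same ratio for the 3 control assays, which gave more signal from nuclei, was 4.02, 17.1, 2.02 and 0.680 in the 4 stages, so the contrast between the fractions was weakest in granulocytes; the part of this in the ratios of the members was not tested.

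**Figure D4:**
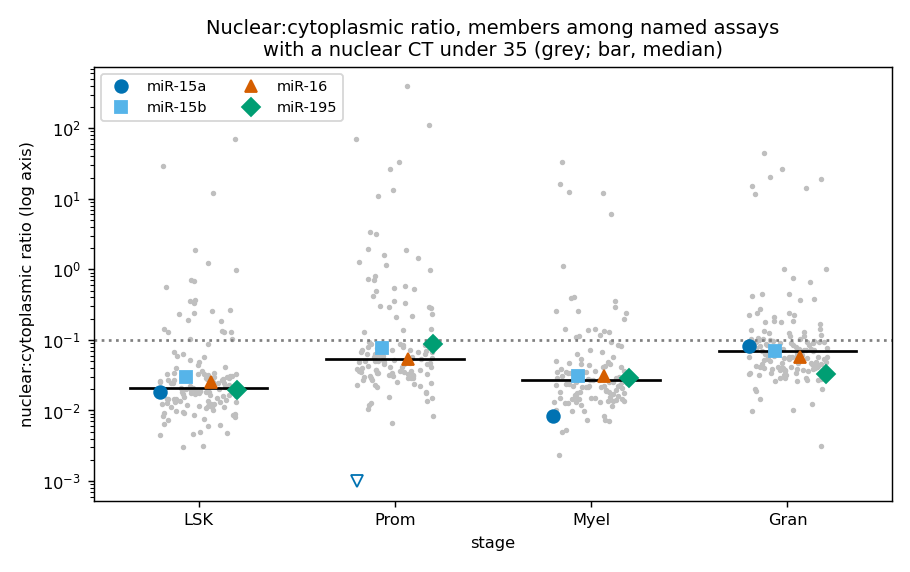
Nuclear:cytoplasmic ratio (log axis) of the 4 members (coloured) and of all named assays with a nuclear CT under 35 (grey; bar, median) by stage, with 1 sample per stage; the dotted line is 0.1 and the open triangle is miR-15a in promyelocytes with its undetermined nuclear well taken at 40. No member lies above 0.1, and miR-195 in granulocytes, at 0.0330, lies below the median of 0.0689.

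Each hairpin also gives a star strand from its opposite arm, which is usually less stable than the guide. Star strands were named for 3 members, and the sequences of those from miR-15a and miR-15b are given because they do not carry the family's seed.
miR-15a*: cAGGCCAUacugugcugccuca
miR-15b*: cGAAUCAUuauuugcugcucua
In whole cell RNA miR-15a* had CTs of 30.8, 29.7, 28.9 and 27.98 from LSK to granulocytes, close to its guide, and miR-15b* 29.2, 26.6, 25.8 and 25.2. miR-16* was at 33.1, 31.5, 30.8 and 29.7, with guide minus star differences of -10.4 to -9.13 cycles. miR-16* was under 30 only in granulocytes and miR-15a* from promyelocytes on, so both entered the counts through stages in which they were high. All 3 rose from LSK to granulocytes, by log2 changes of 2.12, 3.30 and 2.70, where 54.3% of the 129 assays rose by 2-fold or more. Without scaling these values were 2.80, 3.97 and 3.37, and the median change of the card B assays under a CT of 30 was 1.13. Which copy of miR-16 the miR-16* assay reads is not known here, while the guide assay reads both, so the pair of miR-16 and miR-16* is not known to be the 2 arms of 1 hairpin.

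In whole cell RNA the arms did not keep step. From LSK to promyelocytes the star strand gained on the guide by 0.85 cycles for miR-15a, 1.87 for miR-15b and 0.91 for miR-16. At the next step the guide gained on the star strand, the difference changing by -1.85, -1.45 and -1.23 cycles. The guides are on card A and the star strands on card B. Over the assays under a CT of 30, the median whole cell change of card B minus that of card A was 0.11 in the first step and -0.82 in the second. In cytoplasmic RNA the first step was -0.18, 0.80 and 1.58 cycles for the 3 pairs while the cards differed by 0.99, and the second was -0.44, -0.10 and -1.68 cycles while the cards differed by -0.68. Several star wells were above a CT of 30, and the part of the cards in the differences between the arms was not tested. Nuclear wells of the star strands had CTs between 29.5 and 37.4, too late for comparison in most samples.

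**Figure D5:**
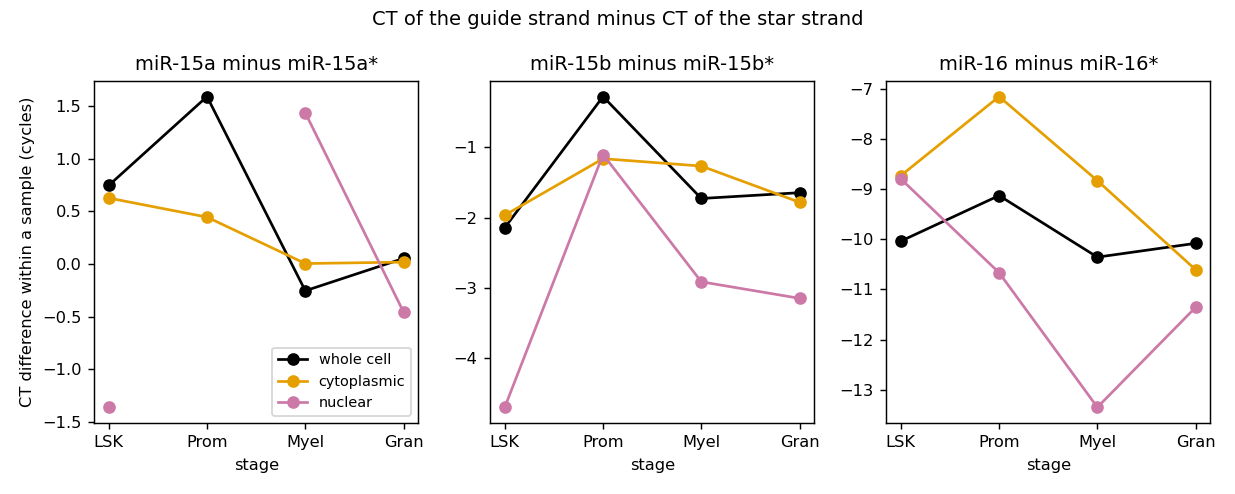
CT of the guide minus CT of its star strand in the same sample (cycles; the vertical axes differ), by stage and fraction, with 1 sample per point; a value that rises means that the star strand gained on the guide, and the nuclear miR-15a value of promyelocytes is left out. In whole cell RNA (black) each of the 3 differences is greatest in promyelocytes, 1.59 cycles for miR-15a, -0.28 for miR-15b and -9.13 for miR-16.

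The same seed is carried by miR-322, from a cluster on the X chromosome that also gives miR-503, and by miR-497. Whole cell miR-322 had CTs of 29.2, 29.4, 27.3 and 26.9 from LSK to granulocytes, a log2 change of 1.67, and so rose less than the 4 members over the same course. Its distance to miR-16 widened from 6.15 cycles in LSK to 7.22 in granulocytes in whole cell RNA, and from 5.24 to 7.55 in cytoplasmic RNA. miR-497, the neighbour of miR-195, was undetermined in whole cell promyelocytes and myelocytes and at 35.4 and 34.5 in LSK and granulocytes, so the pair could not be compared across the stages. Of these 2 assays and 5 others of the X-linked cluster, 4 of 7 had a whole cell CT that fell below 30 at some stage: miR-322, miR-322*, miR-503 and miR-503*. miR-503 did so only in myelocytes and granulocytes and miR-503* only in granulocytes, so they entered through stages in which they were high. All 4 rose by 2-fold or more between promyelocytes and myelocytes, by 2.16, 2.65, 3.03 and 1.47, which places them in the range of the 4 members or above it, where 42.6% of all assays rose. From LSK to granulocytes 3 of the 4 did, with 1.67 for miR-322, 1.42 for miR-322*, 1.88 for miR-503 and -0.06 for miR-503*, against 54.3%. Relative to the mean CT, miR-503* came to 0.96 between promyelocytes and myelocytes, under 2-fold. With that scaling miR-322 came to 0.84 and miR-322* to 0.59 from LSK to granulocytes, and only miR-503, at 1.04, passed. The other cluster assays were read later: miR-351 changed by 1.49 and miR-450a-5p by 0.82 between promyelocytes and myelocytes, and by -0.56 and 0.41 from LSK to granulocytes.

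Profiles over the 8 whole cell and cytoplasmic samples were compared by the root mean square difference in CT after each fraction was centred on its own mean, among 138 assays under a CT of 35 throughout. The nearest profile to miR-15a was miR-15b, at 0.194 cycles, followed by miR-26b* (0.321) and miR-16 (0.328). For miR-15b they were miR-142-5p (0.169), miR-15a (0.194) and miR-16 (0.212). For miR-16 they were miR-26b* (0.167), miR-15b (0.212) and miR-142-5p (0.242). The profile of miR-195 was nearest to both arms of another hairpin, miR-340-3p (0.264) and miR-340-5p (0.309), then to miR-192 (0.430), with miR-16 the next at 0.453. For miR-16, miR-15a took rank 7, at 0.328. miR-195 stood at 0.453 to 0.714 cycles from the other members.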

How the data were processed

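TLDA RT-qPCR (rodent A and B cards) was performed by the authors on whole cell, cytoplasmic and nuclear RNA, and CT values were called with SDS and RQ Manager. The authors deposited raw CT values without normalization. No mapping or genome build applies to them. Assays are numbered in the table: names were given where CTs, or whole cell CT differences, matched those printed in Additional files 5 and 1 within 0.0005 cycles and 0.002, each uniquely and with the values of Additional file 1, headed as log2, read as logs to base 1.5 (248 and a further 22 assays). All 4 members are on card A. No column was left unused apart from the assay numbers.

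Whole cell log2 changes are CT differences minus the shift of the averaged CT of 3 control assays, those that end card B, which gives the constants behind Additional file 1. Cytoplasmic and nuclear differences were not scaled. Assays with a CT under 30 in at least 1 stage of a fraction were counted, at a limit of 2-fold. Depth has no counterpart here: 199 to 294 assays per sample were under 40, and 1 well per assay gives no error. The members, lists and limits were chosen with earlier results of these data known. Named miRNAs are the members, their star strands, same-seed and cluster partners, the markers and the 3 nearest profiles per member. Alternatives changed the scaling, CT limit, fold limit, amplification per cycle, divisor, profile measure and the CT given to undetermined wells (35). The scripts were tested on simulated data. Sequences and positions are from RefSeq, GRCm38.p6, and 13 of 13 names looked up were matched. Computations used Python 3.11.15, numpy 2.4.6, pandas 2.3.3 and matplotlib 3.10.9.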

Additional observations from a re-analysis of the deposited data

Results flagged for a closer look

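As reported, with scaled whole cell and unscaled cytoplasmic values, the 4 members moved in opposite directions between LSK and promyelocytes, by 0.04 to 1.32 in whole cell and by -1.57 to -0.91 in cytoplasmic RNA. The cytoplasmic minus whole cell log2 change was -1.29 for miR-15a, -1.61 for miR-15b, -1.33 for miR-16 and -2.89 for miR-195. Its median over the 121 assays counted in both fractions was -1.597, and of the 4 members miR-195 stood farthest from it. The place of miR-195 among the 121 assays was not counted. With the control assays in both fractions the 4 differences were 0.56, 0.24, 0.52 and -1.04, and all 4 members were then higher in cytoplasmic promyelocytes, so the opposite directions depend on the scaling. From myelocytes to granulocytes miR-15a also moved in opposite directions, with a difference of -0.57 against a median of 0.11. With 1 sample each, these differences were not tested.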

How the results depend on the processing

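No paired analysis was possible because the samples carry no replicate numbers, with 1 sample per stage and fraction, and no value comes from a test; the nuclear:cytoplasmic ratios set the fractions of a stage against each other. The whole cell rise from LSK to granulocytes kept its direction for the 4 members under no scaling, the mean CT and 1.9-fold per cycle. Scaling the cytoplasmic CTs by the 3 control assays changed most. The cytoplasmic LSK to promyelocyte change became 0.66 for the median, 0.60 for miR-15a, 0.72 for miR-15b and 0.28 for miR-195 (0.0444 for miR-15b with the mean CT). The myelocyte to granulocyte change became -1.27 for the median and -1.56 for miR-15b. From promyelocytes to granulocytes miR-15a came to -0.67, miR-15b to -0.68 and miR-16 to -0.15, and from LSK to granulocytes miR-15a came to -0.0703 and the median to 0.42 in place of 1.84. The cause was not tested.

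Counts of 12 single steps that rose by 2-fold or more were 5 in whole cell RNA (6 without scaling, 3 with the mean CT and 3 at a 3-fold limit). They were 5 in cytoplasmic RNA (2 with the control assays) and 8 in nuclear RNA (5 with the mean CT, 4 at a 3-fold limit). Of all counted assays, 34.9%, 42.6% and 10.1% rose so in the 3 successive whole cell steps. From promyelocytes to myelocytes and on to granulocytes, 50% and 10.9% did in cytoplasmic RNA. In nuclear RNA 33.3% and 74.2% did, and miR-15a was not among the assays of these shares. Shares at the other settings were not counted. The nuclear count includes 2 steps of miR-15a, of which that from the undetermined promyelocyte well depends on the CT given to it: with 35 in place of 40 the LSK to promyelocyte change of nuclear miR-15a went from -5.46 to -0.46 and the promyelocyte to myelocyte change from 6.11 to 1.11. Ratios over 0.1 were 0, and 6 without the divisor, all in promyelocytes and granulocytes, where the median of the named assays then passed 0.1 too. Of the 12 nearest profiles, 3 returned with all 12 samples, which only 3 members entered, and 6 with Pearson correlation. Of the 7 partners 3 rose by 2-fold or more in whole cell RNA from LSK to granulocytes, where 54.3% of the 129 assays did. Without scaling 4 did, and 1 with the mean CT, alternatives chosen after seeing the data. From promyelocytes to myelocytes 5 of the 7 rose so, where 42.6% of the 129 assays did. CTs above 30 are limited by detection.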
